A study of Mus musculus with 18 samples.

Results

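Endothelial and mural cells, the cells that line and wrap the blood vessels, were examined in 5 single-cell RNA libraries of adult mouse mammary glands. The gland tissue had been sorted for Lin- cells, which were negative for Ter119, CD31 and CD45, a gate that takes out CD31+ endothelial cells, so the endothelial cells described here were those that remained after it. For FVB/NJ mice the study also gives a gate on the epithelial surface proteins CD24 and CD29 (CD24+, CD29hi), which bears on how many vessel cells a library could hold. A cell was taken as endothelial when its UMIs (unique molecular identifiers, each a counted RNA molecule) of Pecam1, Cdh5, Cldn5 and Gpihbp1 summed to at least 3. It was taken as mural when its UMIs of Rgs5, Notch3, Pdgfrb and Ndufa4l2 summed to at least 4 and it had no UMI of Pecam1 or Cdh5. In both cases the cell had at least 500 detected genes, under 20% mitochondrial UMIs and at most 1 UMI of the epithelial gene Epcam. These rules found 202 cells, 99 endothelial and 103 mural, among 42858 kept cells of the 5 libraries, which held 45534 barcodes of the 149371 in the 18 libraries of the whole series. No cell met both gates.

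The 5 libraries came from the glands of virgin mice at 10 weeks, were labelled as epithelium, and each pooled several mice that were not staged for the estrus cycle. FVB/NJ mice gave 3 libraries, called A10, P7 and D12, and C57BL/6 and SWISS mice (an outbred, CD1-like stock) gave 1 library each, so that strain and library could not be told apart for these last strains. The C57BL/6 and SWISS libraries were processed together with a library of another stage, and an FVB/NJ adult library together with a post-involution library, per the study's methods, which do not say which of the 3 FVB/NJ libraries that was. Values of several libraries are given below in the order A10, P7, D12, C57BL/6 and SWISS.

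A blood vessel consists of an inner endothelial tube and an outer layer of mural cells, which are called pericytes on capillaries and smooth muscle cells on arterioles and venules. Endothelial cells signal to the mural coat through ligands such as platelet-derived growth factor B, Notch ligands and nitric oxide, and mural cells answer through the matching receptors and contract or relax. In the mammary fat pad the capillaries also carry fatty acids between blood and adipocytes, and the duct itself has a separate contractile cell, the basal or myoepithelial cell, which shares the smooth muscle programme with mural cells.

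Promoter sequences of 5 genes that separated the vessel classes are shown here to give the regulatory context of the values that follow. They came from RefSeq on build GRCm38.p6 and run from 250 bases before to 50 bases after the annotated start, 5′ to 3′ on the gene's strand. Capitals mark the matches of 1 searched motif for each gene, on either strand. The genes were picked from listed genes with a match, so their matches were part of the choice. Where several promoters were listed, the 1 with most matches is shown, or that with the lowest start where they tied. For the endothelial genes Egfl7 (chr2:26580833-26581132, plus strand, 1 of 3 promoters listed) and Emcn (chr3:137340828-137341127, plus strand) it was the ETS-family motif CAGGAAG, which 13.3% of all 32851 promoters held. For Myl9 (chr2:156775214-156775513, plus strand), which encodes a regulatory light chain of smooth muscle myosin, it was the CArG box of serum response factor, which 1.63% of all promoters held. For Gucy1a1 (chr3:82145024-82145323, minus strand, 1 of 2 promoters listed) and Gucy1b1 (chr3:82074662-82074961, minus strand), the subunits of the nitric oxide receptor, it was TGGGAA, the core bound by the Notch partner RBPJ, which 25.6% of all promoters held.
Egfl7: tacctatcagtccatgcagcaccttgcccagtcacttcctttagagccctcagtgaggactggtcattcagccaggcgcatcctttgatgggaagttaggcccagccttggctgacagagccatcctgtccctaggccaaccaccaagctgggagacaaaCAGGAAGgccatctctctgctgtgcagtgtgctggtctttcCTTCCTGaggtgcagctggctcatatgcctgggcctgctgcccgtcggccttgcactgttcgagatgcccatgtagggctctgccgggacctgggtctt
Emcn: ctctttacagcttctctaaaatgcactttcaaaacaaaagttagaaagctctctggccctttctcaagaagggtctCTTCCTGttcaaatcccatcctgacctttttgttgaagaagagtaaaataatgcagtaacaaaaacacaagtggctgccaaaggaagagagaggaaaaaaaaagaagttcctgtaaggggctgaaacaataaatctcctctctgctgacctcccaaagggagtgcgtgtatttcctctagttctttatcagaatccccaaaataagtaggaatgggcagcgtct
Myl9: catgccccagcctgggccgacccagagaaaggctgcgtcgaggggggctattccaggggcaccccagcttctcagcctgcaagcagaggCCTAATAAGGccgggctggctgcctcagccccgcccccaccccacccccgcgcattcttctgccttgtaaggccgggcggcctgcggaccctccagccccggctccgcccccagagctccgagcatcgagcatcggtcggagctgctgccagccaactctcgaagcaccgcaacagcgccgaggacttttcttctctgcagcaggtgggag
Gucy1a1: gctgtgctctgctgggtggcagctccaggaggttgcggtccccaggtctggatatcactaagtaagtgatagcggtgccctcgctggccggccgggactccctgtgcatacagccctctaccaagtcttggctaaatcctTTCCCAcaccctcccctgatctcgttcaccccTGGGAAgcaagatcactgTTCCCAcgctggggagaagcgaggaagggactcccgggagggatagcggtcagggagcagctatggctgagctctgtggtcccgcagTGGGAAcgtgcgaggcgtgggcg
Gucy1b1: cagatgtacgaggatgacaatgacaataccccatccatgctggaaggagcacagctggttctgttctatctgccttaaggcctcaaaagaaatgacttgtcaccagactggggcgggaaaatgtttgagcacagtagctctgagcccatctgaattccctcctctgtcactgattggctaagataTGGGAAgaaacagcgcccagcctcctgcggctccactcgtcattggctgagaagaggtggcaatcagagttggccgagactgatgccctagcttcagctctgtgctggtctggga

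The ETS motif stood at -90 to -84 and, on the other strand, at -49 to -43 from the start of Egfl7, and at -174 to -168 on the other strand in Emcn. The CArG box of Myl9 lay at -161 to -152. Gucy1a1 held 4 RBPJ cores, the nearest of them at -60 to -55 upstream and at 27 to 32 inside the transcript, and Gucy1b1 held 1 at -65 to -60. Over the lists used below, 6 of 16 promoters of endothelial identity genes held the ETS motif (37.5%), 1 of 17 promoters of contractile genes held the CArG box (5.88%), and 11 of 21 promoters of pericyte genes held the RBPJ core (52.4%). The RBPJ core was also held by 5 of 12 promoters of fibroblast identity genes (41.7%), 6 of 17 of contractile genes (35.3%) and 4 of 16 of endothelial identity genes, and the ETS motif by 3 of 17 promoters of endothelial transcription factors (17.6%) and 3 of 21 of pericyte genes (14.3%). In all, 234 of 335 listed genes had a promoter in the RefSeq table. These are matches of letters and were not tested as sites.

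The 202 cells were shallow. The median depth was 1637 UMIs in endothelial cells (range 851 to 9533) and 2219 in mural cells (749 to 10389), and by library it ran from 1146 to 2772 in endothelial cells, from 1409 to 3976 in mural cells and from 2576 to 6986 in all kept cells. The summed endothelial cells held 201952 UMIs over the 5 libraries and the mural cells 269654, against 7610839 in 1690 fibroblasts and 52955759 in 10208 basal epithelial cells. Library P7 stood apart by a lower median depth in every class. Over the 10 pairs of libraries 144 barcodes were shared, and none was a member in both. Fibroblasts with over 5 keratin UMIs made up 14.2% of their class in SWISS and 80.2% in D12.

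Endothelial cells were 0.231% of all kept cells (exact binomial interval 0.188 to 0.281%) and mural cells 0.240%. By library the endothelial share was 0.272% (30 of 11048 cells), 0.393% (13 of 3307), 0.107% (6 of 5589), 0.255% (32 of 12561) and 0.174% (18 of 10353). The mural share was 0.444% (49 cells), 0.454% (15), 0.0537% (3), 0.231% (29) and 0.0676% (7). The plot of shares by library shows that the mural share in A10 and P7 (intervals 0.328 to 0.586% and 0.254 to 0.747%) lay above those in SWISS (0.0272 to 0.139%) and D12 (0.0111 to 0.157%), while the endothelial intervals of A10, C57BL/6 and SWISS overlapped. These intervals cover counting error only, and the sort and the depth both bear on the shares. In cells thinned to 2000 UMIs, which left out all shallower cells (33 endothelial and 51 mural cells then met the gates), the endothelial share was 0.0988, 0.0922, 0.0187, 0.104 and 0.0796%, and the mural share 0.237, 0.138, 0.0562, 0.164 and 0.0199%. The thinned mural interval of P7 (0.0285 to 0.403%) overlapped those of SWISS (0.00241 to 0.0718%) and D12 (0.0116 to 0.164%), and that of A10 (0.152 to 0.353%) overlapped that of D12. With stricter gates (sums of at least 5 and 6) the endothelial share was 0.182% and the mural share 0.142%. The mural interval of P7 (0.105 to 0.476%) then overlapped that of D12 (0.0111 to 0.157%), and that of A10 (0.161 to 0.355%) did not.

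**Figure D1:**
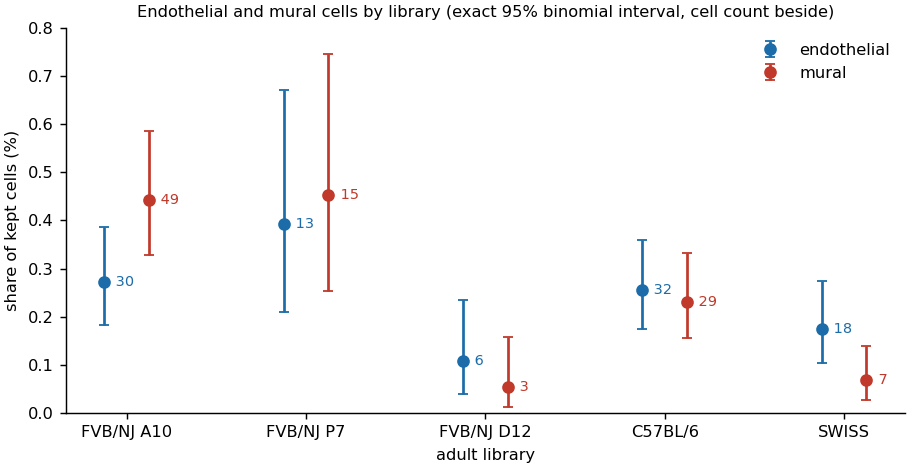
Share of kept cells (percent) that met the endothelial or the mural gate in each adult library, with exact binomial 95% intervals as bars and the number of cells beside each point. The mural share was 0.444% in A10, 0.0537% in D12 and 0.0676% in SWISS, while the endothelial share ran from 0.107 to 0.393%.

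The genes that the gates used chose the cells, so their values are a description with no test and do not check the gates. The endothelial gate sum had a median of 8 UMIs a cell (3 to 70) and the mural one a median of 6 (4 to 25). At the edge of the endothelial gate, 6, 1, 1, 1 and 2 cells had a sum of exactly 3, and 3, 5, 0, 6 and 2 cells fell just short with 2. At the edge of the mural gate 17, 6, 0, 7 and 1 cells had a sum of 4, and 20, 10, 2, 10 and 5 cells had 3. A further 22 cells reached the endothelial sum and 45 the mural sum but had over 1 Epcam UMI.

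Pecam1, which encodes CD31, the surface protein of the sort, stood at 585, 1155, 1050.2, 1072 and 940.3 CPM (the counts of a gene over all counts of the summed cells of a class, scaled to 1000000) in endothelial cells. It was at 0 in mural cells and fibroblasts, whose gates allowed no UMI of Pecam1 or Cdh5. The fibroblast gate also allowed at most 1 UMI of Rgs5, Notch3 and Ndufa4l2 together, so that the fibroblast levels of these gate genes were capped by the choice of cells. Cdh5, the endothelial cadherin, gave 622, 473, 162, 703 and 973 CPM. Cldn5, a tight junction claudin, reached 1980.0, 3518, 808, 1723 and 1798 CPM in endothelial cells with 1 UMI in all mural cells, and Gpihbp1, which carries lipoprotein lipase to the capillary surface, gave 1282, 1260.1, 808, 949 and 1419 CPM with 3 mural UMIs.

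The mural gate took no cell with Pecam1 or Cdh5, whereas the endothelial gate set no limit on the mural gate genes, so the 2 sets of genes cannot be compared for how exclusive they were. Rgs5, a regulator of G protein signalling known from pericytes, stood at 749.6, 794, 1558, 913 and 1536 CPM in mural cells and at 189, 893, 162, 0 and 726 CPM in endothelial cells. Ndufa4l2, a mitochondrial protein, gave 725, 2689, 1038, 436 and 922 CPM in mural and 189, 525, 242, 0 and 16.5 CPM in endothelial cells. In the C57BL/6 library both genes and Notch3 were at 0 in endothelial cells, whereas in P7 the endothelial level of Rgs5 exceeded the mural one. Of the 99 endothelial cells, 11 also reached a mural sum of 4 (2, 3, 1, 0 and 5 by library), which the gate allowed because they held Pecam1 or Cdh5. These 11 cells were left out in an alternative given beside the mural lists below, and no doublet caller was run. Notch3, a receptor for Notch ligands, gave 554, 573, 346, 695 and 553 CPM in mural cells. Pdgfrb, the receptor for platelet-derived growth factor B, gave 856, 132, 173, 570.5 and 676 CPM. Ndufa4, the paralog of Ndufa4l2 that no gate used, did not pass the test between endothelial and mural cells (0.28 ± 0.44, adjusted p = 0.78).

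Endothelial and mural cells were then compared over genes that no gate used. The counts of each class were summed within each library with at least 10 cells of it, giving endothelial sums in A10, P7, C57BL/6 and SWISS and mural sums in A10, P7 and C57BL/6, and were fitted together with the fibroblasts of all 5 libraries by edgeR's quasi-likelihood test with library as a block. D12 and the SWISS mural cells are shown but did not enter as vessel sums. All genes were measured in the cells that the gates chose, so the adjusted p-values (Benjamini-Hochberg) describe how the gated classes differed across libraries and give no support to the gates. At an adjusted p under 0.05, 624 of 4660 genes were called (13.4%), 291 higher in endothelial cells (6.24%) and 333 higher in mural cells (7.15%), and the median log2 difference of all genes was -0.04. Here and below a log2 difference is endothelial minus mural, given ± a standard error, and values of lists are read beside these shares of all genes. The standard error was derived from the difference and the F statistic of its test, so it is not a separate measure of spread between libraries. Without TMM scaling the median of all genes was 0.12, and 346 genes were higher in endothelial and 299 in mural cells.

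The median mitochondrial share of the mural cells lay above that of the endothelial cells in each of the 5 libraries, from 0.662 against 0.515% in P7 to 8.04 against 3.04% in C57BL/6, and its part in the differences was not tested. The number of calls depended on 2 libraries. Without A10 it was 317 and without C57BL/6 it was 295. When 9 mural cells that also met the fibroblast gate sum were left out, an alternative chosen after seeing the data, 326 of 3754 genes were higher in endothelial and 260 in mural cells. It took out mural cells by their fibroblast gate genes, so values without these 9 cells depend on that choice and do not check the lists. Where a gene had no UMI in a class, a lower bound of the fold is given, for which 3 UMIs over the 5 libraries stand in for the 0. A fold with a counting interval is the ratio of CPM pooled over all 5 libraries, without TMM scaling. Its interval covers counting error only and not the spread between libraries, while the adjusted p beside it comes from the fit. DESeq2 gave no call to several such genes between endothelial and mural cells, among them Sox17, Adgrl4, Tie1, Dll4, Mmrn1, Map3k7cl, Pln and Olfr558 (adjusted p from 0.35 to 0.47). The heat map of levels shows the listed genes in all 4 classes and 5 libraries.

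**Figure D2:**
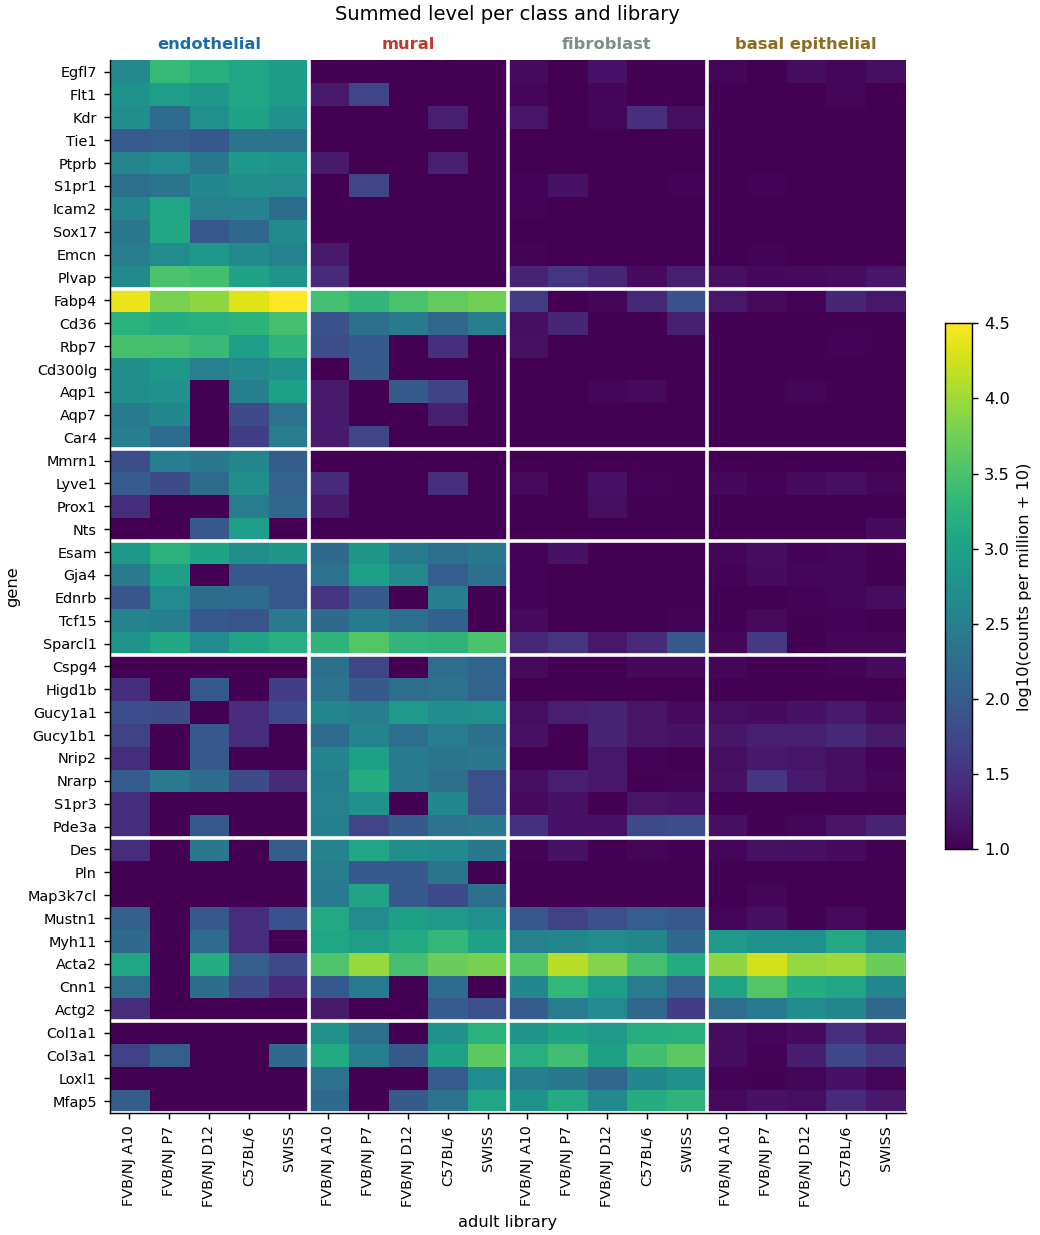
Levels of 46 genes, as log10 of CPM plus 10, in endothelial, mural, fibroblast and basal epithelial cells of each adult library (columns), with genes in rows grouped by list. Endothelial genes such as Egfl7 and Kdr are bright in the endothelial columns, and Des and Map3k7cl in the mural columns. Acta2 is high in the mural and basal columns and in fibroblasts, and was not called between mural cells and fibroblasts.

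The endothelial identity list, from which the gate genes had been removed, was higher in endothelial cells for 14 of its 15 tested genes and lower for none, with a median log2 difference of 6.66 (5.02 with genes at 0 in mural cells set to their bound). Of these 14 calls 9 held without each library in turn. Without the 9 mural cells above, which were taken out by their fibroblast gate genes, 15 of 15 were called. Egfl7, a secreted protein of the vessel wall, stood at 434, 2205, 1616, 1143 and 825 CPM in endothelial cells and had no UMI in 103 mural cells. It was at least 89.0-fold higher in endothelial cells (adjusted p = 2.4e-15). Every one of the 5 libraries thus showed it on the endothelial side only, and it carried the pair of ETS motifs printed above.

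Sox17, a transcription factor of arterial endothelium, gave 245, 1260.1, 80.8, 141 and 445 CPM against no mural UMI and was at least 32.5-fold higher (adjusted p = 3.4e-08). Clec14a, a surface lectin of endothelium, was at least 13.8-fold higher (adjusted p = 3.8e-04). Emcn, the sialomucin endomucin, gave 302, 473, 727, 457 and 329.9 CPM with 1 mural UMI and was higher by 107-fold with a counting interval of 18.6 to 4271 (adjusted p = 2.3e-08). Plvap, which forms the diaphragms of fenestrae and caveolae, was higher by 146-fold with a counting interval of 39.8 to 1209 (adjusted p = 2.2e-14), and Mmrn2, a matrix protein of vessels, by 45.4-fold with a counting interval of 12.1 to 382 (adjusted p = 3.2e-06). Each was seen in the endothelial cells of all tested libraries, and Clec14a was at 0 in D12. Cd34, which also marks fibroblast progenitors, gave 56.6, 263, 242, 158 and 247 CPM in endothelial cells and 40.7, 0, 0, 114 and 0 CPM in mural cells, and it was the 1 gene of the list not called (1.02 ± 0.59, adjusted p = 0.29). Without the 9 mural cells that met the fibroblast sum Cd34 was called (9.20, adjusted p = 5.5e-05). As Cd34 also marks fibroblast progenitors, this call depends on the choice of the cells left out.

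Among endothelial receptors and signalling genes 12 of 15 were higher in endothelial cells and none in mural cells, with a median log2 difference of 4.23 (3.88 at the bounds). The count was 9 without A10 and 9 without C57BL/6. Kdr, the main receptor for vascular endothelial growth factor, stood at 528, 158, 565, 1019.7 and 577 CPM with 1 UMI in all mural cells, a difference of 175-fold with a counting interval of 30.9 to 6961 (adjusted p = 1.7e-13). Flt1, the other VEGF receptor of blood vessels, gave 622, 893, 727, 1143 and 825 CPM and was higher by 116-fold with a counting interval of 31.7 to 967 (adjusted p = 1.7e-13). The endothelial phosphatase Ptprb, which acts on the angiopoietin receptor, was higher by 74.8-fold with a counting interval of 20.2 to 625 (adjusted p = 1.8e-10). In each of the 5 libraries the endothelial level of these 3 genes lay above the mural one.

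The angiopoietin receptors themselves were less firmly placed. Tek, the receptor for angiopoietins, had 1 mural UMI and was higher in endothelial cells by 26.7-fold with a counting interval of 4.27 to 1107 (adjusted p = 0.0031), and lost its call without A10 (3.41, adjusted p = 0.098). Tie1, its partner, was at least 14.7-fold higher in endothelial cells (adjusted p = 0.0023) and lost its call without C57BL/6 (adjusted p = 0.19). Adgrl4, an adhesion receptor of endothelium, was at least 21.8-fold higher in these cells (adjusted p = 1.2e-05), and Ramp2, a partner of the adrenomedullin receptor, was higher by 3.46 ± 0.50 (adjusted p = 8.4e-09).

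Junction and surface genes were higher in endothelial cells for 17 of 19 genes and in mural cells for none, with a median log2 difference of 4.13 (3.79 at the bounds), and 11 calls held without each library in turn. Icam2, an adhesion molecule for leukocytes, stood at 396, 1155, 323, 352 and 165 CPM and was at least 34.3-fold higher (adjusted p = 1.0e-10). Ly6c1 and Ly6a, GPI-anchored surface proteins of capillary endothelium, differed by 3.15 ± 0.42 (adjusted p = 5.2e-10) and 1.85 ± 0.39 (adjusted p = 1.7e-04, and 0.18 without the library block). Esam, an adhesion molecule of endothelial junctions, was higher by 1.56 ± 0.43 (adjusted p = 0.005) but lost its call without A10 (1.29, adjusted p = 0.2) and without the block (adjusted p = 0.14), and its level of 147, 705, 259.6, 176 and 246 CPM in mural cells was above that in fibroblasts (0.394 CPM).

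Of 13 tested transcription factors of endothelium, 6 were higher in endothelial cells and none in mural cells, with a median log2 difference of 1.02, and the count was 3 without A10 and 2 without C57BL/6. Ets1, of the family whose motif is printed above, gave 169.7, 473, 80.8, 299 and 379 CPM in endothelial and 65.2, 44.1, 0, 51.9 and 123 CPM in mural cells (2.32 ± 0.55, adjusted p = 8.9e-04). The flow-responsive factors Klf2 (0.65 ± 0.35, adjusted p = 0.24) and Klf4 (-0.72 ± 0.36, adjusted p = 0.21) did not pass the test, and Klf2 stood at 1942, 4148, 2100.3, 2356 and 1551 CPM in endothelial and 513, 3879.7, 259.6, 1400.2 and 246 CPM in mural cells, ranges that overlapped. Tcf15, a factor of capillary endothelium of fat and muscle, gave 358, 315, 80.8, 70.3 and 264 CPM and 147, 265, 173, 114 and 0 CPM, without a call (0.31 ± 0.56, adjusted p = 0.82).

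Genes of capillary lipid handling and caveolae were higher in endothelial cells for 13 of 19 genes and in mural cells for none, with a median log2 difference of 3.30, and 9 calls held without each library in turn. Cells could enter the endothelial class through the capillary gene Gpihbp1, so the values of this list, here and against fibroblasts, depend partly on the gate. Fabp4, the fatty acid binding protein of adipocytes and capillaries, reached 24703, 6143, 8320.5, 21203 and 33835 CPM in endothelial and 2844, 1984, 3202, 4595 and 5591 CPM in mural cells. In every library the endothelial level was above the mural one (2.03 ± 0.33, adjusted p = 3.6e-07, and without the library block 2.82, adjusted p = 0.15). Cd36, a fatty acid transporter, gave 1735, 1470.1, 1535, 1793 and 2887 and 65.2, 176, 259.6, 135 and 307 CPM (3.62 ± 0.48, adjusted p = 3.8e-10), and Rbp7, a retinol binding protein of capillaries, 3017, 2888, 2262, 897 and 1897 and 57.04, 88.2, 0, 20.7 and 0 CPM (5.41 ± 0.55, adjusted p = 4.0e-15).

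Aqp1, the water channel of capillaries, was higher in endothelial cells by 4.45 ± 0.65 (adjusted p = 1.6e-08), and Cd300lg, a receptor of capillary endothelium, by 74.1-fold with a counting interval of 20.04 to 619.5 (adjusted p = 3.0e-10, and 0.26 by DESeq2). Cavin2, a coat protein of caveolae, differed by 5.44 ± 0.58 (adjusted p = 4.7e-14), whereas Cav1, their main membrane protein, differed by 1.73 ± 0.43 (adjusted p = 0.0019) and lost its call without A10 (1.55, adjusted p = 0.098). Adipocyte genes were present in some vessel sums: a list of 7 (Adipoq, Plin1, Cidec, Car3, Cfd, Retn and Lep, of which Lep was at 0) summed to 3413, 210.0, 0, 52.7 and 247 CPM in endothelial cells and to 855.6 CPM in mural cells of A10, and it was at 0 in the mural cells of the other 4 libraries, against at most 9.56 CPM in fibroblasts. The part of these RNAs in the lipid genes was not tested.

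Vessel subtypes were read from lists of known genes. Of the arterial list 7 of 11 genes were higher in endothelial cells (median log2 difference 3.78, 3.17 at the bounds), and the count was 3 without A10 and 3 without C57BL/6. Fbln5, an elastic fibre protein, and Clu, the chaperone clusterin, were among them (4.15 ± 0.65, adjusted p = 1.5e-07, and 3.17 ± 0.59, adjusted p = 1.2e-05). Of the venous list 5 of 6 genes were higher in endothelial cells (median 3.19), with 2 calls without C57BL/6 and 3 without D12. Its firmest members were Lrg1, a secreted glycoprotein of venules, with 1 mural UMI (higher by 167-fold with a counting interval of 29.4 to 6644, adjusted p = 1.7e-13), and Ctla2a, a protease inhibitor of endothelium (5.39 ± 0.71, adjusted p = 3.0e-10, and 0.099 without the library block).

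The lymphatic list was called for 4 of 9 genes (median 3.75, 2.29 at the bounds), and none of its calls remained without C57BL/6. Lyve1, the hyaluronan receptor of lymphatic vessels, stood at 94.3, 52.5, 162, 545 and 115 CPM in endothelial and 16.3, 0, 0, 20.7 and 0 CPM in mural cells (3.75 ± 0.92, adjusted p = 0.0016, and without C57BL/6 2.84, adjusted p = 0.47). Mmrn1, a lymphatic secreted protein, was at least 17.8-fold higher (adjusted p = 2.6e-04, and 0.19 without C57BL/6). Of genes of sprouting tip cells, 2 of 10 were higher in endothelial and 1 in mural cells, the latter being Pgf, placental growth factor (-3.42 ± 0.77, adjusted p = 4.4e-04). Without C57BL/6 no tip gene was called on the endothelial side, and without A10 1 was.

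The plot of fitted differences by list shows most endothelial identity, receptor and capillary lipid genes to the right of zero. Most contractile, pericyte and interstitial matrix genes lie to the left. The junction, arterial, venous, lymphatic and tip cell lists are not plotted.

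**Figure D3:**
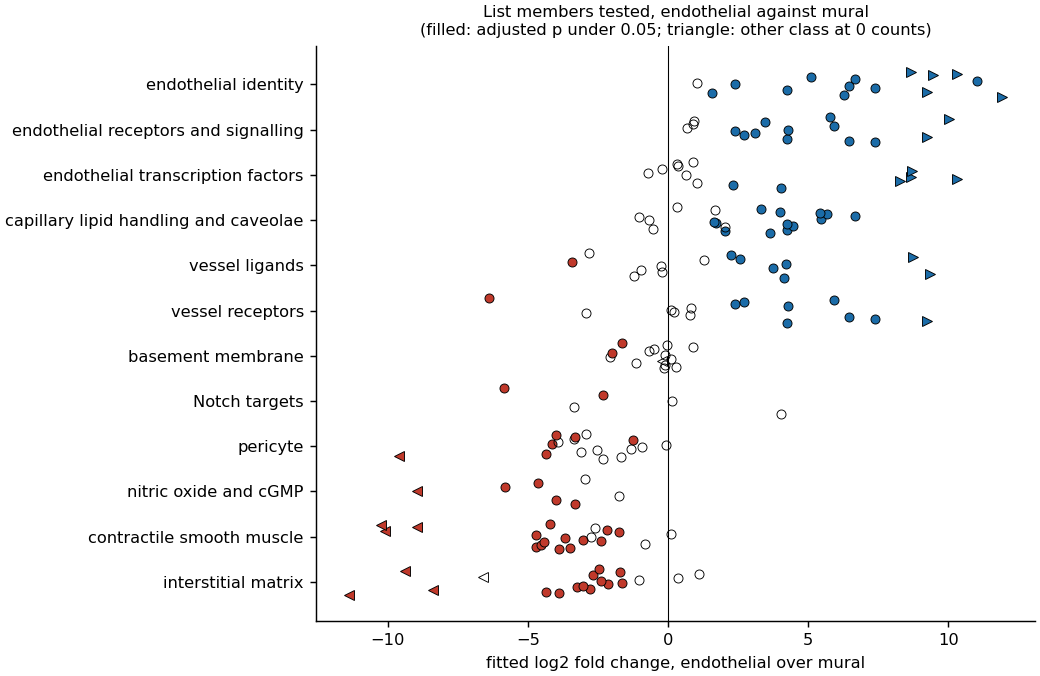
Fitted log2 differences (endothelial minus mural) of each tested gene by list, with filled points called at an adjusted p under 0.05 and triangles for genes with no UMI in the other class. The contractile list has 15 of 19 genes called on the mural side and the endothelial identity list 14 of 15 on the endothelial side.

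Contractile smooth muscle genes were higher in mural cells for 15 of 19 genes and in endothelial cells for none, with a median log2 difference of -3.68 (-3.51 at the bounds). Of these calls 12 held without each library in turn. Without the 9 mural cells that met the fibroblast sum, 15 of 19 genes of the list were called. Acta2, smooth muscle actin, stood at 3422, 9038, 2855, 4937 and 6082 CPM in mural and 1150.3, 0, 1454, 105 and 49.5 CPM in endothelial cells (-3.90 ± 0.42, adjusted p = 8.4e-14). Tagln, an actin-bundling protein of smooth muscle, gave 2151, 4100.2, 1904, 3983 and 3686 and 622, 210.0, 1131, 193 and 16.5 CPM (-3.51 ± 0.39, adjusted p = 3.3e-13). Myl9, whose promoter held the CArG box, gave 1736, 6128, 2769, 1784 and 3318 and 169.7, 158, 485, 0 and 165 CPM (-4.52 ± 0.46, adjusted p = 3.5e-15), and Myh11, smooth muscle myosin heavy chain, differed by -4.72 ± 0.53 (adjusted p = 4.7e-13). In each library the mural level of these 4 genes was the higher one.

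Genes known from muscle of the vessel wall were higher in mural cells as well. Des, the intermediate filament desmin, stood at 359, 1146, 519, 467 and 246 CPM in mural and 18.9, 0, 242, 0 and 99.0 CPM in endothelial cells (-4.42 ± 0.63, adjusted p = 6.0e-09). Map3k7cl, a kinase-like gene of unknown role, gave 277, 1102, 86.5, 51.9 and 184 CPM, had no UMI in endothelial cells and was at least 17.0-fold higher in mural cells (adjusted p = 3.0e-06). Mustn1, a small nuclear protein of muscle, differed by -4.19 ± 0.52 (adjusted p = 5.3e-11) and Sncg, gamma-synuclein, by -2.19 ± 0.44 (adjusted p = 7.6e-05). Pln, phospholamban, which restrains the calcium pump of muscle, had no endothelial UMI and was at least 14.7-fold higher (adjusted p = 6.9e-05), without a call when A10 was left out (adjusted p = 0.067). Olfr558, an olfactory receptor gene known from vascular smooth muscle, was at least 24.5-fold higher (adjusted p = 3.5e-08).

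Of the pericyte list, 6 of 16 genes were higher in mural cells and none in endothelial cells (median log2 difference -3.01), with 3 calls without A10. Of the mural identity list, which overlaps it, 5 of 15 were higher in mural cells (median -2.52), with 2 without A10 and 3 without C57BL/6. Without cells of mixed content, which were the 11 endothelial cells that also reached the mural sum and all cells with over 5 keratin UMIs or a Ptprc UMI, these counts were 12 of 15 and 11 of 15. In that setting 655 of 3829 genes were called in all. It took out endothelial cells by their mural gate genes, so these counts depend on that choice and do not check the lists. Gjc1, connexin 45, which couples smooth muscle cells, gave 147, 88.2, 86.5, 353 and 184 CPM in mural cells and was higher there by 14.5-fold with a counting interval of 4.71 to 72.3 (adjusted p = 3.1e-05). Higd1b, a mitochondrial protein of pericytes, stood at 204, 88.2, 173, 197 and 123 CPM in mural and 18.9, 0, 80.8, 0 and 33.0 CPM in endothelial cells (-4.34 ± 1.12, adjusted p = 0.0028) and lost its call without A10 (-5.22, adjusted p = 0.078) and without C57BL/6 (-3.71, adjusted p = 0.19). Cspg4, the proteoglycan NG2 of pericytes, had no endothelial UMI and was at least 10.5-fold higher in mural cells (adjusted p = 4.0e-04, and 0.06 without A10). Gja4, connexin 37, was detected in both classes, at 264, 945, 0, 87.9 and 82.5 CPM in endothelial and 196, 926, 433, 104 and 184 CPM in mural cells (-0.08 ± 0.51, adjusted p = 0.96).

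The signalling partners of the 2 vessel layers were then set side by side. Among vessel ligands 7 of 14 were higher in endothelial cells and 1, Pgf, in mural cells (median 1.78), with 1 endothelial call without A10 and 2 without C57BL/6. Cxcl12, a chemokine that retains leukocytes and progenitors, was the firmest, at 1603, 998, 3878, 1459 and 693 CPM in endothelial and 220.0, 309, 259.6, 135 and 61.4 CPM in mural cells (2.56 ± 0.43, adjusted p = 1.1e-06). Pdgfb, which recruits mural cells, was higher in endothelial cells by 18.0-fold with a counting interval of 4.53 to 156 (adjusted p = 0.0053), with adjusted p = 0.067 without A10, 0.18 without C57BL/6 and 0.079 without the library block. Dll4, a Notch ligand, had no mural UMI and was at least 11.6-fold higher in endothelial cells (adjusted p = 0.0029, 0.1 without A10 and 0.18 without C57BL/6). Edn1, the vasoconstrictor endothelin, gave 547, 0, 162, 70.3 and 165 CPM in endothelial and 0, 44.1, 0, 20.7 and 0 CPM in mural cells (higher by 20.03-fold with a counting interval of 6.43 to 101, adjusted p = 6.6e-04, and without A10 a log2 difference of 1.06, adjusted p = 0.74).

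Among vessel receptors 8 of 14 were higher in endothelial cells and 1 in mural cells (median 2.57), with 5 without C57BL/6. The receptors for sphingosine 1-phosphate, a lipid that tightens the barrier and contracts muscle, were divided between the classes. S1pr1 stood at 189, 210.0, 404, 527 and 478 CPM in endothelial cells with 1 mural UMI, a difference of 104-fold with a counting interval of 18.2 to 4166 (adjusted p = 5.5e-07). S1pr3 stood at 326, 573, 0, 425 and 61.4 CPM in mural cells and 18.9, 0, 0, 0 and 0 CPM in endothelial cells (higher in mural cells by 71.1-fold with a counting interval of 12.5 to 2839, adjusted p = 5.1e-10). The endothelin receptor Ednrb was detected in both (75.4, 473, 162, 158 and 82.5 and 24.4, 88.2, 0, 301 and 0 CPM, log2 difference 0.20 ± 0.62, adjusted p = 0.9), as was Ednra at 18.9, 105, 0, 0 and 0 and 122, 44.1, 0, 93.3 and 0 CPM (adjusted p = 0.065).

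Of the Notch targets 2 of 5 were higher in mural cells and none in endothelial cells (median -2.31). Nrip2, a nuclear receptor interacting protein, was at 359, 926, 259.6, 218 and 246 CPM in mural and 18.9, 0, 80.8, 0 and 0 CPM in endothelial cells (higher in mural cells by 34.8-fold with a counting interval of 9.37 to 292, adjusted p = 9.6e-08). Nrarp, a feedback inhibitor of Notch, differed by -2.31 ± 0.51 (adjusted p = 3.6e-04) and lost its call without P7 (-2.15, adjusted p = 0.053), which left 1, and without the library block (adjusted p = 0.055). Hes1, a target in many cell types, did not pass the test (0.14 ± 0.39, adjusted p = 0.89).

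Genes of the nitric oxide and cGMP pathway, which relaxes smooth muscle, were higher in mural cells for 5 of 7 and in endothelial cells for none (median -3.99, -3.31 at the bounds). Without the 9 mural cells 5 of 7 genes of the list were called. The receptor subunits Gucy1a1 and Gucy1b1 stood at 391, 309, 779, 508 and 553 CPM and at 155, 353, 173, 290.4 and 184 CPM in mural cells, against 56.6, 52.5, 0, 17.6 and 49.5 CPM and 37.7, 0, 80.8, 17.6 and 0 CPM in endothelial cells. Both were higher in mural cells (-3.31 ± 0.58, adjusted p = 2.7e-06, and -3.99 ± 0.82, adjusted p = 1.0e-04), and their promoters are those with RBPJ cores marked above. The printed promoter of the endothelial gene Egfl7 also held TGGGAA, which was not marked there. The phosphodiesterases Pde3a and Pde1a, which break down cyclic nucleotides, had 2 endothelial UMIs each and were higher in mural cells by 24.0-fold with a counting interval of 6.37 to 202 (adjusted p = 3.2e-07) and by 14.6-fold with a counting interval of 3.78 to 125 (adjusted p = 5.3e-05). Nos3, the endothelial nitric oxide synthase, had 11 UMIs in all endothelial and 0 in all mural cells and was too low for the test. The plot of signalling genes shows the levels of 14 such genes in each library.

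**Figure D4:**
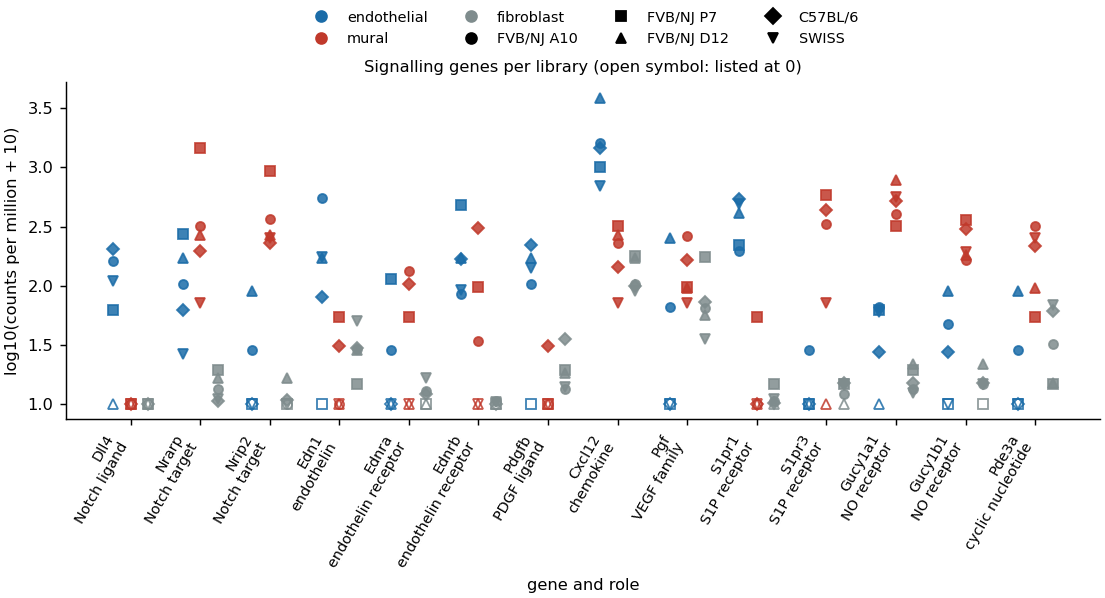
Levels (CPM on a log10 scale after adding 10) of 14 ligand, receptor and second messenger genes in endothelial cells, mural cells and fibroblasts of each adult library. S1pr1 sits high in the endothelial points alone and S1pr3, Gucy1a1 and Gucy1b1 in the mural points.

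Of the basement membrane genes, which both layers deposit, 2 of 14 were higher in mural cells, with a median log2 difference of -0.17 (-0.12 at the bounds). These were Sparcl1, a matricellular glycoprotein, at 1948, 3703, 1990.1, 1898 and 3256 CPM in mural and 641, 1260.1, 485, 1090.0 and 1600.2 CPM in endothelial cells (-1.65 ± 0.35, adjusted p = 1.8e-04, and 0.46 without the library block), and Lamb2, the laminin beta 2 chain (-1.99 ± 0.52, adjusted p = 0.0031, and 0.16 without the block). Col4a1, the main collagen of basement membranes, gave 245, 263, 485, 563 and 1105 and 318, 397, 346, 529 and 676 CPM and was not called (-0.12 ± 0.43, adjusted p = 0.92).

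Interstitial matrix genes were higher in mural cells for 14 of 18 genes (median -2.74, -2.44 at the bounds), with 8 without A10. This count rested on 9 cells: without the mural cells that also met the fibroblast sum, 1 of 17 genes was higher in mural and 1 in endothelial cells. Col1a1, the chain of type I collagen, stood at 627, 176, 0, 581 and 1720.2 CPM in mural cells with no endothelial UMI (at least 41.2-fold, adjusted p = 3.1e-13), but at 2958 CPM in those 9 cells and at 41.5 CPM in the other 94. The fibroblast identity list went the same way, with 7 of 10 genes higher in mural cells and 2 (1 higher in endothelial) without those cells.

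Of the genes for leukocyte adhesion and chemokines 5 of 10 were higher in endothelial cells and 1 in mural cells. Without C57BL/6 the counts were 3 and 0, and without D12 they were 3 and 1. Cxcl9, a chemokine that attracts T cells, gave 151, 0, 0, 105 and 643 CPM in endothelial cells, had no mural UMI and was at least 23.6-fold higher (adjusted p = 2.3e-04). Of the hormone and growth factor receptors 1 of 10 was called, Fgfr1, a fibroblast growth factor receptor, higher in mural cells, and it lost its call without A10 (adjusted p = 0.28), without C57BL/6 (0.072) and without SWISS (0.13). Esr1, the oestrogen receptor, had 0 UMIs in endothelial and 1 in mural cells. Of 10 cell cycle genes 5 had no UMI in endothelial cells and 2 had none in mural cells, and Mki67, a marker of dividing cells, had no UMI in either class. Of 14 dissociation and heat shock genes 1 was called, Atf3, a stress-induced transcription factor, higher in mural cells but not called without C57BL/6 (-0.90, adjusted p = 0.24), and the count was 2 without A10 and 4 without P7. The sum of these genes ran from 7997 to 36858 CPM in endothelial cells, from 11427 to 44793 in mural cells and from 9735 to 26248 in fibroblasts.

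Against fibroblasts, the connective tissue cells of the same glands, 1239 of 4660 genes were called in endothelial cells (26.6%), 531 of them higher (11.4%) and 708 lower (15.2%). The median of all genes was -0.14. Here the log2 difference is endothelial minus fibroblast. Of the calls 42.9% were higher in endothelial cells, and 56.0% were without TMM scaling, which moved the median of all genes to 0.22. In this comparison leaving out 1 library gave 900 to 1193 calls.

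Endothelial identity genes were higher in endothelial cells for 13 of 15 genes, and 1, Cd34, was lower (-2.18 ± 0.40, adjusted p = 2.7e-06, and 0.052 without the library block), and the median was 7.73. Mural genes moved with them: of the mural identity list 6 of 15 genes were higher in endothelial cells than in fibroblasts (median 2.65) and of the pericyte list 5 of 16, with none lower. Without SWISS these counts were 2 and 2, and without the cells of mixed content they were 2 higher and 3 lower of 15, and 1 higher and 3 lower of 15. That setting took out endothelial cells by their mural gate genes, and 423 of 3829 genes were higher and 651 lower in it. The part of mural RNA in the endothelial sums was not tested. Ptprb, with 112 endothelial UMIs and none in 1690 fibroblasts, was at least 1407-fold higher (adjusted p = 1.5e-37). Btnl9, a butyrophilin of capillary endothelium, was at least 779-fold higher (adjusted p = 3.2e-24), and Cd93, a lectin-like receptor, at least 992-fold (adjusted p = 3.3e-31). Tek, which had also lost its call against mural cells, stood at 113, 210.0, 80.8, 105 and 49.5 CPM in endothelial cells and 39.4, 70.5, 16.8, 109.5 and 135 CPM in fibroblasts and was not called (-0.07 ± 0.46, adjusted p = 0.95). Dll4 and Tie1, which had lost calls against mural cells, were at least 327-fold and 415-fold higher than in fibroblasts (adjusted p = 8.6e-12 and 8.9e-14) and kept their call without each library in turn.

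Endothelial transcription factors were higher than in fibroblasts for 11 of 13 genes and lower for 1 (median 5.41), Klf4, which lost its call without A10 (adjusted p = 0.16), without SWISS (0.12) and without the library block (0.55). Capillary lipid genes were higher for 15 of 19 and lower for none (median 5.19), Fabp4 by 9.40 ± 0.40 (adjusted p = 4.1e-50) over a fibroblast level of 30.6 CPM. The adipocyte list moved with them, with 4 of 4 tested genes higher in endothelial cells (median 7.02), and 1 of 1 without A10. Of the Notch targets 3 of 5 were higher (median 2.88), among them Hey1 (4.61 ± 1.03, adjusted p = 1.2e-04) and Nrarp (4.48 ± 0.71, adjusted p = 5.6e-08). Interstitial matrix genes were lower for 18 of 18 (median -4.21), and Col1a1, with no endothelial UMI against 1301 CPM in fibroblasts, was at least 87.6-fold lower (adjusted p = 7.6e-23). Contractile genes were lower for 10 of 19 and higher for 2 (median -2.12), with Acta2 in fibroblasts at 3261 CPM. Of those higher in endothelial cells, Des lost its call without SWISS (adjusted p = 0.56), which left 1. The fibroblasts held keratins, as given above (14.2 to 80.2% of their cells with over 5 keratin UMIs), and without the cells of mixed content 7 of 16 contractile genes were lower and 1 higher, with Mylk at 0.48 and Des at -2.62. The part of epithelial RNA in these values was not tested.

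Mural cells differed from fibroblasts in 897 of 4660 genes (19.2%), 389 higher (8.35%) and 508 lower (10.9%), with a median of -0.19 over all genes (0.02 without TMM scaling). There were 478 calls without A10 and 595 without C57BL/6, and without the 9 mural cells that met the fibroblast sum 393 genes were higher and 643 lower. The log2 difference is here mural minus fibroblast. Of the mural identity list 14 of 15 genes were higher (median 5.78), and of the pericyte list 15 of 16 (median 5.29), with none lower in either. Of the dissociation and heat shock genes 5 of 14 were higher in mural cells and none lower (median 0.65), with 1 higher without A10, and 1 higher and 1 lower without C57BL/6. The median mitochondrial share ran from 0.662% in P7 to 8.04% in C57BL/6 in mural cells and was 0.397 and 2.25% in the fibroblasts of these libraries, and it was higher in mural cells than in fibroblasts in each of the 5 libraries, and its part in these differences was not tested.

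Higd1b had no fibroblast UMI and was at least 470.4-fold higher in mural cells (adjusted p = 1.2e-15), and Vtn, vitronectin, which pericytes secrete, by 5.17 ± 0.85 (adjusted p = 2.9e-07). Cox4i2, a cytochrome oxidase subunit of oxygen-sensing cells, stood at 106, 88.2, 86.5, 166 and 61.4 CPM in mural cells and 0.657 CPM in fibroblasts (7.08 ± 1.004, adjusted p = 3.2e-09). Cspg4 differed by 6.26 ± 0.90 (adjusted p = 5.4e-09). Mcam, the adhesion molecule CD146, was higher by 5.78 ± 0.82 (adjusted p = 3.1e-09). Each of these 5 calls held without each library in turn, although Cspg4 and Higd1b had lost theirs against endothelial cells.

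Contractile genes were higher in mural cells than in fibroblasts for 12 of 19 and lower for 2 (median 1.30), with 7 higher without A10 and 7 higher and 3 lower without C57BL/6. Without the cells of mixed content 15 of 16 were higher. Des was higher by 8.92 ± 0.57 (adjusted p = 1.8e-31) and Myl9 by 1.97 ± 0.35 (adjusted p = 2.8e-06, and 0.21 without the library block). Map3k7cl and Pln had no fibroblast UMI and were at least 639.8-fold and 555-fold higher (adjusted p = 1.1e-17 and 2.6e-16, and 0.071 and 0.074 by DESeq2). Myh11 was higher by 1.52 ± 0.40 (adjusted p = 0.002) but not without A10 (1.46, adjusted p = 0.075) or without C57BL/6 (0.97, adjusted p = 0.17), nor without the block (adjusted p = 0.11). Cnn1, calponin, a brake on smooth muscle contraction, was lower in mural cells (-2.33 ± 0.46, adjusted p = 2.1e-05), but not without the cells of mixed content (-0.42, adjusted p = 0.66) or without the block (adjusted p = 0.10).

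These contractile values were measured against fibroblast sums that held keratins, as given above (14.2 to 80.2% of their cells with over 5 keratin UMIs), and basal epithelial cells express the same contractile genes. The list of 14 epithelial genes summed to 1437 to 7065 CPM in fibroblasts, 176 to 952 in mural cells and 346 to 2020 in endothelial cells. Acta2 did not pass the test between mural cells and fibroblasts (-0.38 ± 0.37, adjusted p = 0.57), and without the cells of mixed content it was higher in mural cells (2.31, adjusted p = 1.6e-08).

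Of the nitric oxide and cGMP list 6 of 7 genes were higher in mural cells than in fibroblasts (median 3.54), with 3 of 6 without A10. Gucy1a1 and Gucy1b1 were higher by 6.37 ± 0.50 (adjusted p = 6.6e-24) and 5.41 ± 0.62 (adjusted p = 3.8e-13). Of the Notch targets 4 of 5 were higher (median 6.23), Nrip2 by 8.41 ± 0.64 (adjusted p = 7.5e-25) and Nrarp by 6.79 ± 0.51 (adjusted p = 4.5e-25). Interstitial matrix genes were lower in mural cells for 12 of 18 and higher for none (median -1.57), and without the 9 cells for 17 of 17. Those 9 cells were taken out by their fibroblast gate genes, so the latter count depends on that choice.

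The comparisons of endothelial and mural cells with fibroblasts used the same fibroblast sums and are therefore not independent, and their values are set side by side here for 4 genes. Apold1, an early response gene of endothelium, had 1 fibroblast UMI and was higher by 5314-fold with a counting interval of 938 to 211350.0 in endothelial and by 2851-fold with a counting interval of 500.2 to 113700.0 in mural cells. Gja4, with 1 fibroblast UMI, was higher by 1583-fold with a counting interval of 269 to 63988 in endothelial and by 1778-fold with a counting interval of 308 to 71334 in mural cells. Ednrb, with 2 fibroblast UMIs, was higher by 546-fold with a counting interval of 138 to 4726 and by 479.8-fold with a counting interval of 123 to 4122. Tcf15 differed by 7.31 ± 0.59 and 6.99 ± 0.66 on the log2 scale. All 4 genes were among the 153 of 4660 genes called higher in both comparisons, and these calls were part of their choice.

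Fabp4 was higher than in fibroblasts in mural cells by 7.37 ± 0.40 (adjusted p = 4.2e-38), as were Cd36 (4.85 ± 0.60, adjusted p = 2.1e-11) and Rbp7 (4.84 ± 0.80, adjusted p = 3.8e-07). A Fabp4 UMI was found in 80 of 99 endothelial cells (80.8%) and in 73 of 103 mural cells (70.9%, exact interval 61.1 to 79.4%), but in 2.25% of fibroblasts and 1.29% of basal epithelial cells, whose median depth was the greater in all libraries. Mural cells had a median of 4 Fabp4 UMIs and endothelial cells of 20. Capillary lipid genes as a list were higher in mural cells than in fibroblasts for 11 of 19 and lower for 1 (median 1.89), with 7 and 1 without A10 and 7 and 2 without C57BL/6. The adipocyte list was higher in mural cells for 4 of 4 tested genes (median 5.48), with 1 gene tested and none called without A10, whose mural cells held all of its UMIs in that class. The part of adipocyte RNA in these values was not tested.

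The last comparison set mural cells against basal epithelial cells, the other contractile cells of the gland, which were gated by at least 10 UMIs of Krt5, Krt14 and Krt17. It was fitted separately on 3 mural and 5 basal sums, with 2 residual degrees of freedom. Here 1294 of 13034 genes were called (9.93%), 537 higher in mural (4.12%) and 757 higher in basal cells (5.81%). The log2 difference is mural minus basal, with a median of -0.61 over all genes, which was -0.06 without TMM scaling. The share of calls that were higher in mural cells was 41.5%, 63.3% without TMM scaling and 59.3% with DESeq2, so the directions of small differences depended on the scaling. Without A10 there were 799 calls and without C57BL/6 468.

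The shared contractile genes did not go one way as a group. Of 20 tested, 7 were higher in mural and 6 in basal cells, with a median of -0.15 that was 0.46 without TMM scaling, and without C57BL/6 7 were higher in mural and 2 in basal cells. Myh11 (-0.03 ± 0.39, adjusted p = 0.97), Myl9 (0.35 ± 0.37, adjusted p = 0.67) and Mylk, myosin light chain kinase (-0.26 ± 0.40, adjusted p = 0.77), were not called, but without TMM scaling Myh11 (0.62, adjusted p = 0.035) and Myl9 (1.04) were. Acta2 stood at 3422, 9038, 2855, 4937 and 6082 CPM in mural and 8261, 18719, 8811, 9573 and 5103 CPM in basal cells (-1.78 ± 0.37, adjusted p = 5.3e-05, without C57BL/6 -1.99, adjusted p = 0.068, and without the library block adjusted p = 0.21). Tagln, Tpm2, a tropomyosin, and Smtn, smoothelin, were the other genes that lost their call without C57BL/6 (adjusted p from 0.095 to 0.28). Cnn1 was lower in mural cells (-4.08 ± 0.47, adjusted p = 6.8e-16), as was Actg2, enteric smooth muscle actin (-3.40 ± 0.58, adjusted p = 3.6e-07). Oxtr, the oxytocin receptor through which basal cells eject milk, was lower in mural cells (-4.38 ± 0.67, adjusted p = 6.0e-09) and was the 1 called gene of 13 hormone and growth factor receptors.

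Des stood at 464 CPM in all mural cells and at 1.87 CPM in basal cells (7.26 ± 0.47, adjusted p = 2.8e-50). Map3k7cl (9.71 ± 0.64, adjusted p = 1.2e-48), Mustn1 (8.13 ± 0.56, adjusted p = 7.5e-45), Pln (10.17 ± 0.74, adjusted p = 1.3e-39) and Casq2, a calcium store protein of muscle (4.28 ± 0.55, adjusted p = 6.1e-13), were also higher in mural cells. All 15 mural identity genes were higher in mural cells (median 7.03), and 16 of 17 pericyte genes were, with 1 lower (median 6.83). Nitric oxide and cGMP genes were higher for 6 of 8 and Notch targets for 4 of 6, with none lower. Calls of Des, Map3k7cl, Mustn1, Pln and Casq2 held without each library in turn and under each scaling tried.

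Single cells were described by sums of subtype genes, without a test, since the cells of a library are not replicates. In endothelial cells the capillary sum (Cd36, Rbp7, Cd300lg, Car4 and Aqp7) reached 3 UMIs in 70 of 99 cells, or 25 of 30, 8 of 13, 4 of 6, 18 of 32 and 15 of 18 by library. The lymphatic sum (Prox1, Mmrn1, Lyve1, Flt4 and Ccl21a) reached 3 in 15 cells, of which 8 were in C57BL/6, and the arterial sum (Sema3g, Gja5, Dll4, Hey1, Bmx and Stmn2) in 11, of which 6 were in A10. Only 3 cells reached both the capillary and the lymphatic sum, and 14 reached none of the 3 sums. The endothelial gate itself held Gpihbp1, a gene of the capillary surface. These counts therefore depend on the gate and do not give the make-up of the endothelium of the gland. In cells with a capillary sum of 3 or more Fabp4, which was not in that sum, stood at 31435 CPM, against 3664 CPM in the other 29.

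The 15 cells with a lymphatic sum held Lyve1 at 1574 CPM, Mmrn1 at 1399 CPM and Prox1, the factor that sets lymphatic identity, at 665 CPM, all used to choose them. In these cells Flt1 stood at 35.0 CPM, which was 1 UMI, against 998 CPM in the other 84. Fabp4 stood at 2554 CPM against 27191 CPM. Most Fabp4 UMIs of these 15 cells (14, 33 and 21) lay in the 3 that also reached the capillary sum. Ccl21a, a chemokine of lymphatic vessels with near-identical gene copies that make its count uncertain, had 513 UMIs in 9 cells, 405 of them in 3. Glycam1, a mucin of the high endothelial venules of lymph nodes and of milk, had 2063 UMIs in 3 endothelial cells, and 1 SWISS cell held 1789 of them, 29.8% of its UMIs. The others, a SWISS cell with 261 and a C57BL/6 cell with 13, had lymphatic sums of 9 and 5. They were thus among the 15 cells above, which were not all shown to be lymphatic.

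**Figure D5:**
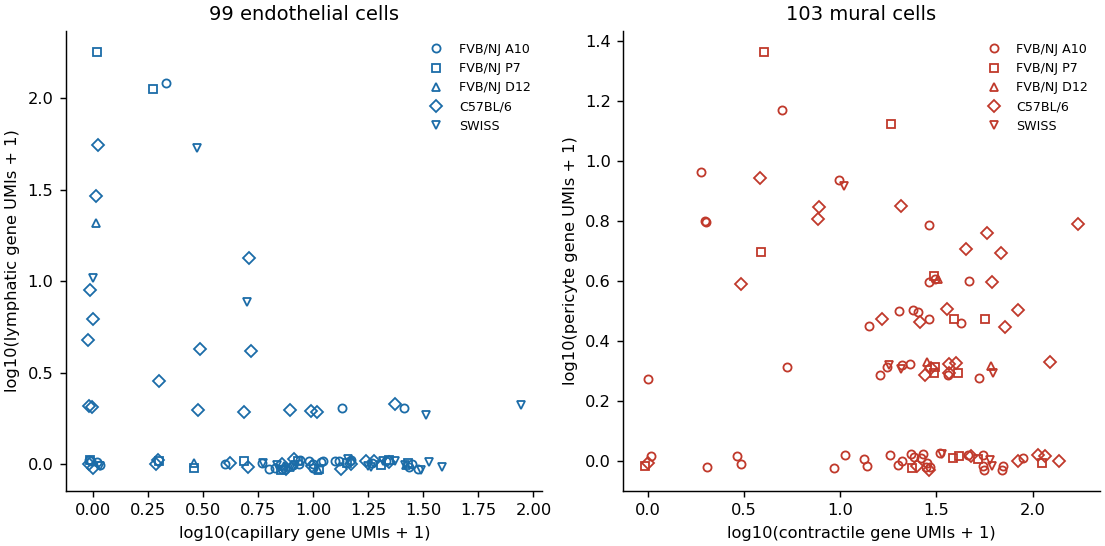
Sums of subtype genes in each member cell, as log10 of UMIs plus 1 with slight jitter, for capillary against lymphatic genes in 99 endothelial cells (left) and contractile against pericyte genes in 103 mural cells (right), with a marker shape for each library. Endothelial cells lie along 2 arms with 3 cells at 3 or more on both axes, while most mural cells lie high on the contractile axis.

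In mural cells the contractile sum (Acta2, Tagln, Myh11, Myl9 and Tpm2) reached 10 UMIs in 83 of 103 cells. The pericyte sum (Kcnj8, Abcc9, Higd1b, Cox4i2, Vtn, Art3 and Steap4) reached 3 in 25 cells, of which 14 also reached the contractile sum and 11 did not, and 69 cells reached the contractile sum alone. In the 11 cells with pericyte genes and few contractile ones, Higd1b stood at 672 CPM, Vtn at 747 CPM, Kcnj8, a potassium channel of pericytes, at 597 CPM and Abcc9, its partner subunit, at 299 CPM, all used to choose them, and Acta2 at 411 CPM. Of the 11, 1 C57BL/6 cell with 131 UMIs of the fibroblast gate genes held 9484 of their 26779 UMIs, and in the other 10 Higd1b stood at 1041 CPM, Vtn at 1156 CPM, Kcnj8 at 809 CPM, Abcc9 at 463 CPM and Acta2 at 636 CPM. A UMI of Des, Pln, Map3k7cl or Mustn1 was found in 90 of 103 mural cells, against 10 of 99 endothelial cells, 26.7% of fibroblasts and 0.970% of basal epithelial cells. Smooth muscle genes were thus found in most cells of the mural class, which also held cells with pericyte genes.

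The 9 mural cells that also met the fibroblast sum of 4 UMIs of Dcn, Lum, Pdgfra and Dpt came from A10 (5), C57BL/6 (3) and SWISS (1) and had a median of 4576 UMIs. In them Dcn stood at 6694 CPM and Col3a1, type III collagen, at 6068 CPM, against 4.61 and 78.4 CPM in the other 94, and Des at 94.8 against 553 CPM. Of these cells 6 reached the mural sum through Pdgfrb alone, which fibroblasts also expressed at 52.4 CPM.

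Markers of blood cells were near 0. Of 13 leukocyte genes 10 were at 0 in endothelial and 12 in mural cells, with sums of 24.8 and 3.71 CPM, and Ptprc, which encodes CD45, had no UMI in any member. Of 6 erythroid genes 5 were at 0 in both classes. Of 7 Schwann cell genes 4 were at 0 in endothelial cells and all 7 in mural cells.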

How the data were processed

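Adult glands of 3 mouse strains were digested, sorted for Lin- cells and captured with 10x Genomics 3′ chemistry. The deposited matrices give for each barcode the raw count of UMIs of 31053 features. The authors ran Cell Ranger (3.0.2 per the file headers, 3.1.0 per the labels) on build mm10 and exported barcodes that had at least 500 reads. The other 13 libraries of the series were not analysed here. Members and gene lists were chosen with earlier results of these data known. Gates and the mitochondrial limit were applied to each barcode with numpy 2.4.6 and pandas 2.3.3, and no doublet caller was run. Counts were summed per class and library (at least 10 cells), filtered with filterByExpr, scaled by TMM and fitted with edgeR 4.0.16 (quasi-likelihood, library as a block, R 4.3.3), with DESeq2 1.42.0 as an alternative. Gate genes were left out of the tests. The block pairs class sums that came from the same pooled mice, and the labels do not say whether libraries of FVB/NJ came from separate days. Genes named in the text were taken from the lists and, for each comparison and direction, from the 12 largest called differences with at least 50 CPM in the higher class that lay on one side in every library, and not all of these are named. The alternatives without mural cells that carried fibroblast genes, and without the block on the genes tested with it, were chosen after seeing the data.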

Additional observations from a re-analysis of the deposited data

How the results depend on the processing

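The counts of called genes moved by over 1.5 times under several settings. Between endothelial and mural cells the 624 calls became 226 of 2523 tested with no replicate block (library not a term, which also let fewer genes pass the filter than the 4660 of the reported fit), 251 of 2964 with stricter gates, 135 in FVB/NJ libraries only and 346 in C57BL/6 and SWISS libraries only, and leaving out each library in turn gave 295 to 557. Between endothelial cells and fibroblasts the 1239 calls became 503 of 2523 with no replicate block and 419 in FVB/NJ libraries only, with 900 to 1193 when leaving out each library. Between mural cells and fibroblasts the 897 calls became 215 of 2523 with no replicate block, 535 of 2964 with stricter gates, 402 in FVB/NJ and 452 in C57BL/6 and SWISS libraries only, with 478 to 867. Between mural and basal epithelial cells the 1294 calls became 618 of 11621 with no replicate block (13034 with it) and 764 in FVB/NJ libraries only, with 468 to 1441. With no replicate block but the genes tested with it, chosen after seeing the data, the calls in these 4 comparisons were 294, 725, 347 and 691. Among the fits that left out 1 library, the lowest values came from leaving out A10 or C57BL/6, which held most members. Where a setting leaves 1 sum in a class, that sum is assumed to vary like the others. DESeq2 called 418 genes between endothelial and mural cells, of which 409 were among the 624. The pairing by library is that of the mice pooled for it, and genes named above that were called with the block and not without it included Sparcl1, Lamb2, Fabp4, Ctla2a, Ly6a, Esam, Nrarp and Pdgfb between endothelial and mural cells, Myl9, Myh11 and Cnn1 between mural cells and fibroblasts, and Acta2 and Tagln between mural and basal cells. On the genes tested with the block, Nrarp kept its call, as did Cd34 between endothelial cells and fibroblasts, while Cav1 (adjusted p = 0.078) and Edn1 (0.065) lost theirs between endothelial and mural cells.

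Of 320 values of named genes over all comparisons, 6 changed direction with a call in the reported fit or the alternative, 5 of them in 1 alternative and Cd34 in 2. Changes of direction without a call in either fit were not counted. Over 5248 comparisons of these values with alternatives, 313 lost a call and 76 gained one. Without the cells of mixed content, Acta2 (2.31) became higher in mural cells than in fibroblasts, and in endothelial cells against fibroblasts Des went to -2.62 and Mylk to 0.48. Cd300lg in mural cells against fibroblasts went to -0.10 with at least 20 cells a sum. Cd34 in mural against basal cells went to -1.62 with stricter gates and to -9.37 without the mural cells that carried fibroblast genes. Myh11 in mural against basal cells went to 0.62 without TMM scaling. The causes were not tested. Depth limited genes at few UMIs: 3 UMIs over all endothelial cells equal 14.9 CPM and over all mural cells 11.1 CPM.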
